A study of Homo sapiens with 12 samples.

Results

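The MHC class I presentation genes are 9 genes of the pathway that shows peptides from inside a cell on its surface: the class I heavy chain genes HLA-B, HLA-C, HLA-E and HLA-F, the light chain gene B2M, the peptide transporter genes TAP1 and TAP2, the tapasin gene TAPBP and the transactivator gene NLRC5. They were taken as the rows of the count table whose Ensembl identifier maps to these symbols. Each symbol had 1 identifier, so 9 of the 63677 listed genes belong here, and all 9 were among the 17730 genes with enough reads to be tested. The members were measured in HCT116, an epithelial line from a human colon carcinoma, by sequencing of polyadenylated RNA from 12 libraries in 6 groups of 2. All cultures were seeded at 25000 cells per well, were treated with a cationic lipid reagent and were collected 72 h later. In the mock group the reagent carried no siRNA, and in siControl it carried a non-targeting siRNA that matches no known mammalian transcript. The siTotal1 and siTotal2 groups received siRNAs to sequence present in all transcripts of NFYA, and siLong1 and siLong2 received siRNAs aimed at the long 3′ untranslated region, so only at the longest NFYA transcripts. Each siRNA was used at 62.5 nM, each group stands for 1 siRNA sequence in 1 cell line, and the libraries of a group are biological duplicates per the design text, so p-values measure the spread between 2 cultures of a group and not between siRNA sequences.

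In a class I molecule a heavy chain pairs with beta-2-microglobulin, the product of B2M, and a peptide fills its groove. TAP1 and TAP2 together form the transporter that brings peptides into the endoplasmic reticulum, and tapasin holds the empty heavy chain next to it. NLRC5 has no sequence-specific DNA contact of its own and acts on class I promoters through factors bound at the S, X and Y boxes, the last of which is a CCAAT box read by NF-Y, the complex of NFYA, NFYB and NFYC. Interferon response elements and NF-kB sites lie in many of the same promoters.

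The promoter sequences are shown to place the CCAAT boxes of the members. RefSeq windows (GRCh38.p14) from 250 bases before to 50 after the transcription start matched 7 of the 9 members, and HLA-E and NLRC5 did not match. TAP1 had a further window, at chr6:32852712-32853011 (minus strand), that held none of the motifs searched here. Its window at chr6:32853655-32853954 was used, and the counts take 1 window for each of the 7 members. The letters CCAAT, searched on both strands, so that the opposite strand reads ATTGG, were in 5 of these 7 windows, against 34.6% of all 35116 windows of that length. The motifs were chosen after these sequences were seen, so this count and the motif counts below are a description and do not test enrichment. The stretches below end with this box read on the opposite strand. Capitals mark the box on either strand and TGACG, the core of the X2 box, which is also the core of a cyclic AMP response element. They lie at chr6:31357256-31357285 (minus strand), chr6:31272168-31272197 (minus strand), chr6:29723327-29723356 (plus strand) and chr15:44711443-44711472 (plus strand).

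HLA-B: TGACGcgtccccacttcccactcccATTGG
HLA-C: TGACGcgtccCCAATtcccactcccATTGG
HLA-F: taacgcggccccatttctcactcccATTGG
B2M: gacggtccctgcgggccttgtcctgATTGG

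In HLA-B and HLA-C the stretch from TGACG to ATTGG spanned 30 bases and ended 77 and 76 bases before the start. In B2M the same span was 31 bases, ending 45 bases before the start, so the T of its TGACG is just outside the printed stretch. The HLA-F stretch ended 78 bases before the start and held no TGACG. HLA-B, HLA-C and HLA-F shared a further CCAAT on the gene strand, whose first base was 56, 56 and 57 bases upstream (for HLA-B, chr6:31357221-31357245, minus strand).

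HLA-B: tctagagaagCCAATcagcgtcgcc

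The TAP1 window held ATTGG only at its upstream edge, 249 to 245 bases before the start, and the TAP2 and TAPBP windows held neither strand of CCAAT. These 3 windows carried the letters of an interferon response element, searched as a pair of GAAA repeats with 2 bases between them, as did those of HLA-F and B2M, against 3.57% of all windows. The shorter form, which lacks the last A of the first repeat and can overlap the longer one, was in HLA-B, HLA-C and TAP2 (7.66% of all windows). The NF-kB letters, searched as GGG followed after 2 bases by T and after 2 more by CC, were in 5 members (22.0% of all windows) and TGACG in 4 (24.6%), each counted on both strands. The TAP1 example shows the NF-kB letters, and those of TAP2 and TAPBP the interferon letters, in capitals. They lie on the minus strand at chr6:32853762-32853781, chr6:32838783-32838802 and chr6:33314084-33314103. A match describes these reference letters and is not a measured binding site, and the HCT116 alleles may differ from the reference.

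TAP1: ttcctGGGACTTTCCgagag
TAP2: gaagcGAAAGCGAAAgctgc
TAPBP: tggagGAAAGTGAAAgtgaa

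**Figure D1:**
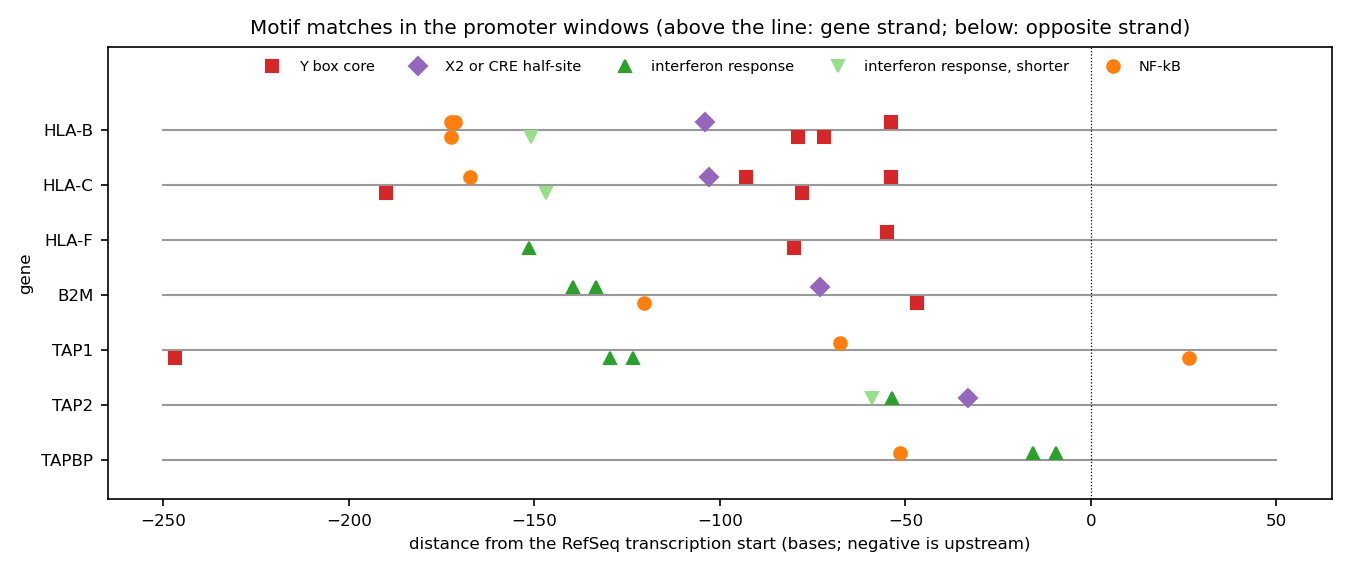
Motif matches in the promoter windows of 7 members, by distance in bases from the RefSeq transcription start (x axis), with gene-strand matches above each line and opposite-strand matches below. Red squares, labelled Y box core, mark every match of the letters CCAAT on either strand, whether or not it is a Y box. They lie within 100 bases upstream in HLA-B, HLA-C, HLA-F and B2M, with 1 more in HLA-C about 190 bases upstream, and in TAP1 only at the upstream edge.

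Reads per library totalled 35604197 to 49746637. NFYA itself, the targeted gene, stood at 57.2 ± 2.8 CPM in mock and 57.5 ± 0.049 in siControl (mean ± SD, n = 2), and by edgeR's quasi-likelihood test was lower than siControl by 0.28 (log2) in siTotal1, 0.32 in siTotal2 and 0.29 in siLong1 (adjusted p = 1.7e-05, 1.8e-06 and 6.9e-06). In the libraries labelled siLong2 it was higher by 0.28 (adjusted p = 5.9e-06), so siLong1 alone is given beside the pooled siLong results. Epithelial markers KRT8, KRT18, KRT19, EPCAM and CDH1 had 2012 reads or more in every library, while VIL1, CDX1 and CEACAM5, which mark differentiated colon epithelium, had at most 6. CDX2 had 534 to 859 reads and KRT20 18 to 204. The summed level of these 10 markers was 3333 to 3653 CPM in mock, siControl and the siTotal groups and 4979 to 5394 CPM in the siLong groups. Of the 7 tested, 2 rose and 2 fell in siTotal1 against siControl (22.9% and 20.5% of all genes). Those that fell were EPCAM (-0.76) and CDH1 (-0.78, log2). In siTotal2 1 rose, KRT20 at 2.42, and 2 fell (22.6% and 22.6% of all genes). In siLong1 5 rose and 0 fell (26.4% and 28.1% of all genes). In the libraries labelled siLong2 4 rose and 1 fell, CDH1 at -0.26 (25.9% and 26.9% of all genes). Of 10 blood and antigen-presenting cell markers, MS4A1 and FCGR3A had 0 reads in every library, PTPRC had 2 in all, and the summed level was 1.25 to 4.50 CPM, highest in siLong1. Of 8 fibroblast markers, COL1A1 was present throughout, and the summed level was 26.3 to 46.0 CPM. The other 7 fibroblast markers summed to 422 reads in mock replicate 1, 212 and 112 in the siTotal2 libraries, 91 in replicate 2 of siLong2 and 6 to 31 elsewhere. None of the tested markers of this list was called in siTotal or siLong against siControl, but standard errors were wide for those with few reads. DCN was at 5.79 in siTotal (log2; SE 10.3) and 5.31 in siLong (SE 8.58), so the lack of a call does not show equal levels.

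B2M (ENSG00000166710, chromosome 15, 44711487 to 44718877, plus strand, GRCh38) was the only member that stood above both controls in every culture given an NFYA siRNA. Its level was 243 and 254 CPM in mock and 225 and 238 in siControl, where CPM is the count scaled to library size with TMM. It was 336 and 306 CPM in siTotal1, 374 and 363 in siTotal2, 370 and 348 in siLong1 and 348 and 355 in siLong2. All 8 siRNA libraries were above all 4 control libraries, and the ranges of siTotal1 and siTotal2 did not meet. Against siControl B2M rose by 0.57 in siTotal (log2; SE 0.04, adjusted p = 1.4e-14) and by 0.62 in siLong (SE 0.04, adjusted p = 9.1e-16), by edgeR's quasi-likelihood test. Against mock it rose by 0.47 and 0.52 (adjusted p = 8.9e-12 and 1.1e-13). B2M was called in each of the 4 siRNA groups against siControl, from 0.47 in siTotal1 to 0.67 in siTotal2, and mock against siControl was at 0.10 (adjusted p = 0.065). Ranges of the 8 and the 4 libraries were separate for 1 of 9 members and for 4.19% of all tested genes. In RNA from whole cultures, a change in the share of cells with a transcript and a change in its level per cell cannot be told apart.

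The heavy chain genes did not move as a block. HLA-B (ENSG00000234745, chromosome 6, 31269491 to 31357188, minus strand), a classical heavy chain, was at 159 and 166 CPM in mock and 153 and 159 in siControl. The siTotal1 libraries held 131 and 134 CPM, those of siTotal2 174 and 171, siLong1 195 and 190, and siLong2 168 and 177. HLA-B was thus below all controls in siTotal1 and above them in the other siRNA groups. It fell by 0.24 in siTotal1 (log2, against siControl; SE 0.04, adjusted p = 1.4e-05) and rose in siTotal2 (0.14, adjusted p = 0.0044), siLong1 (0.30, adjusted p = 9.4e-08) and siLong2 (0.14, adjusted p = 0.0041). Over both siTotal groups these opposite directions left -0.05 (adjusted p = 0.31), by the same test.

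HLA-C (ENSG00000204525, chromosome 6, 31268749 to 31272130, minus strand) is the other classical heavy chain gene measured here. Its libraries held 281 and 286 CPM in mock, 289 and 279 in siControl, 237 and 241 in siTotal1, 326 and 315 in siTotal2, 243 and 244 in siLong1 and 261 and 264 in siLong2. Levels were below every control in siTotal1, siLong1 and siLong2 and above every control in siTotal2. Against siControl the change was -0.25 in siTotal1 (SE 0.04), 0.17 in siTotal2, -0.22 in siLong1 and -0.11 in siLong2, each called (edgeR adjusted p from 1.9e-06 to 0.015). HLA-B and HLA-C therefore moved together under the siTotal siRNAs and in opposite directions under the siLong siRNAs. There were 0.531 to 0.582 HLA-B reads per HLA-C read in the controls, 0.534 to 0.556 in the siTotal libraries, 0.777 and 0.802 in siLong1 and 0.643 and 0.669 in siLong2. The ratio does not depend on the library scaling, and its siLong values lay above all others. HLA-B and HLA-C are near-identical over long stretches and share 35 annotated exon bases, so the counting could place reads of either on the other, and the sources used here do not say how such reads were treated.

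HLA-E (ENSG00000204592, chromosome 6, 30489467 to 30494205, plus strand) encodes a non-classical heavy chain that is read by natural killer cell receptors. It stood at 113 and 121 CPM in mock, 97.7 and 102 in siControl, 112 and 111 in siTotal1, 139 and 134 in siTotal2, 86.6 and 85.0 in siLong1 and 118 and 122 in siLong2. The order of the group means ran from siLong1 over siControl, siTotal1, mock and siLong2 to siTotal2, and of these neighbours only mock and siLong2 overlapped. HLA-E rose against siControl by 0.16 in siTotal1 (SE 0.04), 0.45 in siTotal2 and 0.27 in siLong2 and fell by 0.22 in siLong1 (edgeR adjusted p from 7.7e-11 to 0.0036). The mean over the siLong groups, 0.02 (adjusted p = 0.62), hides this split, and the difference of siLong1 from siLong2 was itself called at -0.49 (SE 0.04, adjusted p = 1.3e-11).

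HLA-F (ENSG00000204642, chromosome 6, 29722775 to 29738528, plus strand), also non-classical, was the member that fell most. The siControl libraries held 12.9 and 12.5 CPM and the mock libraries 8.23 and 8.69. It was at 5.50 and 6.11 CPM in siTotal1, 8.45 and 9.78 in siTotal2, 5.84 and 6.17 in siLong1 and 6.96 and 7.13 in siLong2. Every other library lay below siControl, mock included, and siTotal2 overlapped mock. Against siControl HLA-F fell by 0.80 in siTotal (SE 0.08, adjusted p = 3.2e-10), by 0.96 in siLong (SE 0.08, adjusted p = 2.6e-12) and by 0.59 in mock (SE 0.09, adjusted p = 2.7e-06). With mock as the control it fell by 0.38 in siLong (adjusted p = 4.0e-04), and siTotal was at -0.22 (adjusted p = 0.054). HLA-F overlaps the antisense gene HLA-F-AS1 over 535 exon bases. That gene had 1377 reads in all libraries against 3777 for HLA-F, and since the sources used here do not name the strand setting of the counting, their reads may not be told apart.

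**Figure D2:**
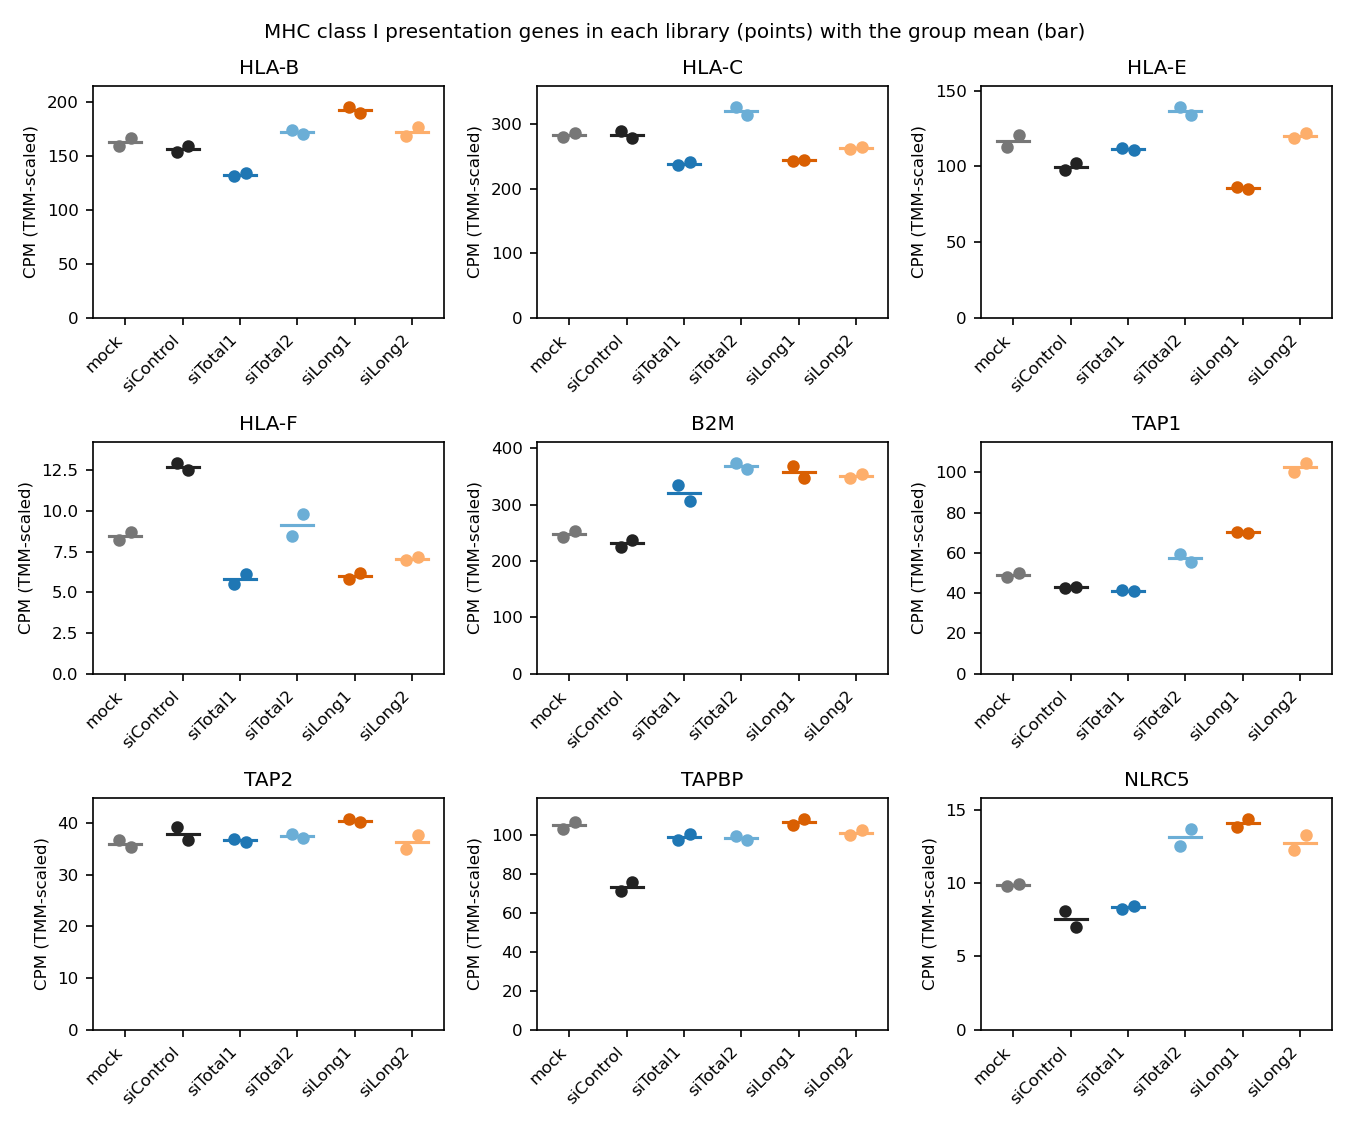
TMM-scaled CPM (y axes, from 0) of the 9 members in the 12 libraries, as points, with the group mean of 2 libraries as a bar. B2M is above the controls in every siRNA group, HLA-F is highest in siControl at 12.5 to 12.9 CPM, TAPBP is lowest in siControl and TAP2 is nearly level.

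The transporter genes behaved differently from each other. TAP1 (ENSG00000168394, chromosome 6, 32845209 to 32853978, minus strand) was at 47.8 and 49.7 CPM in mock and 42.6 and 43.0 in siControl. It was at 41.3 and 41.0 CPM in siTotal1, 59.4 and 55.3 in siTotal2, 70.6 and 69.9 in siLong1 and 100 and 105 in siLong2. All 6 groups were separate in their library ranges, with siTotal1 lowest and siLong2, at 2.49 times the siTotal1 mean, highest. Against siControl TAP1 rose in siLong1 (0.71, SE 0.05, adjusted p = 9.7e-15), siLong2 (1.26, SE 0.05, adjusted p = 6.6e-22) and siTotal2 (0.42, SE 0.05, adjusted p = 9.8e-09), and siTotal1 was at -0.06 (adjusted p = 0.41). Against mock, siLong was higher by 0.80 (SE 0.04, adjusted p = 9.3e-18), whereas siTotal was at -0.01 (adjusted p = 0.94).

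TAP2 (ENSG00000204267, chromosome 6, 32821833 to 32838780, minus strand) held 36.6 and 35.5 CPM in mock, 39.2 and 36.7 in siControl, 36.9 and 36.4 in siTotal1, 37.9 and 37.1 in siTotal2, 40.8 and 40.1 in siLong1 and 34.9 and 37.7 in siLong2. Its highest group mean was 1.12 times its lowest. TAP2 was the 1 member not called in any comparison with siControl or mock, with differences of -0.08 to 0.09 and SEs of 0.05 to 0.06 (log2). There were 1.09 to 1.40 TAP1 reads per TAP2 read in the controls, 1.12 and 1.13 in siTotal1 and 1.57 and 1.49 in siTotal2. The ratio was 1.73 and 1.74 in siLong1 and 2.87 and 2.77 in siLong2. Since both genes were counted in the same libraries, this rise in the ratio does not depend on the scaling.

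TAPBP (ENSG00000231925, chromosome 6, 33299694 to 33314387, minus strand) was low in siControl and alike elsewhere. The siControl libraries held 71.1 and 75.6 CPM, against 103 and 107 in mock, 97.5 and 100 in siTotal1, 99.3 and 97.3 in siTotal2, 105 and 108 in siLong1 and 100 and 103 in siLong2. TAPBP was higher than siControl by 0.43 in siTotal (SE 0.04, adjusted p = 2.4e-11), by 0.50 in siLong (SE 0.04, adjusted p = 2.0e-13) and by 0.52 in mock (SE 0.04, adjusted p = 4.9e-12). With mock as the control siTotal was at -0.09 (adjusted p = 0.065) and siLong at -0.02 (adjusted p = 0.76). The rise of TAPBP is therefore a difference of the siControl libraries from all others, and what set those libraries apart was not tested.

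NLRC5 (ENSG00000140853, chromosome 16, 56989485 to 57083531, plus strand), the class I transactivator gene, had 260 to 542 reads per library. It was at 9.82 and 9.89 CPM in mock, 8.12 and 7.005 in siControl, 8.25 and 8.43 in siTotal1, 12.5 and 13.7 in siTotal2, 13.8 and 14.4 in siLong1 and 12.3 and 13.2 in siLong2. The siTotal2, siLong1 and siLong2 libraries were above every control library and every siTotal1 library. NLRC5 rose against siControl in siTotal2 (0.79, SE 0.09, adjusted p = 4.6e-09), siLong1 (0.90, SE 0.09, adjusted p = 1.5e-10) and siLong2 (0.75, SE 0.09, adjusted p = 1.2e-08), and was at 0.14 in siTotal1 (adjusted p = 0.27). It was also higher in mock than in siControl, by 0.38 (SE 0.09, adjusted p = 0.0011), and siLong remained above mock by 0.44 (SE 0.08, adjusted p = 5.4e-06).

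Levels of different genes can be compared only per length. Averaged over the 6 groups and divided by the length of the longest principal GENCODE 29 transcript, B2M was at 184 CPM per kb and HLA-C at 177, followed by HLA-B at 107, TAPBP at 51.5, HLA-E at 42.9, TAP1 at 20.4, TAP2 at 15.02, HLA-F at 5.01 and NLRC5 at 1.61. The B2M value rests on a transcript of 1705 bases, and its shortest principal transcript has 943.

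**Figure D3:**
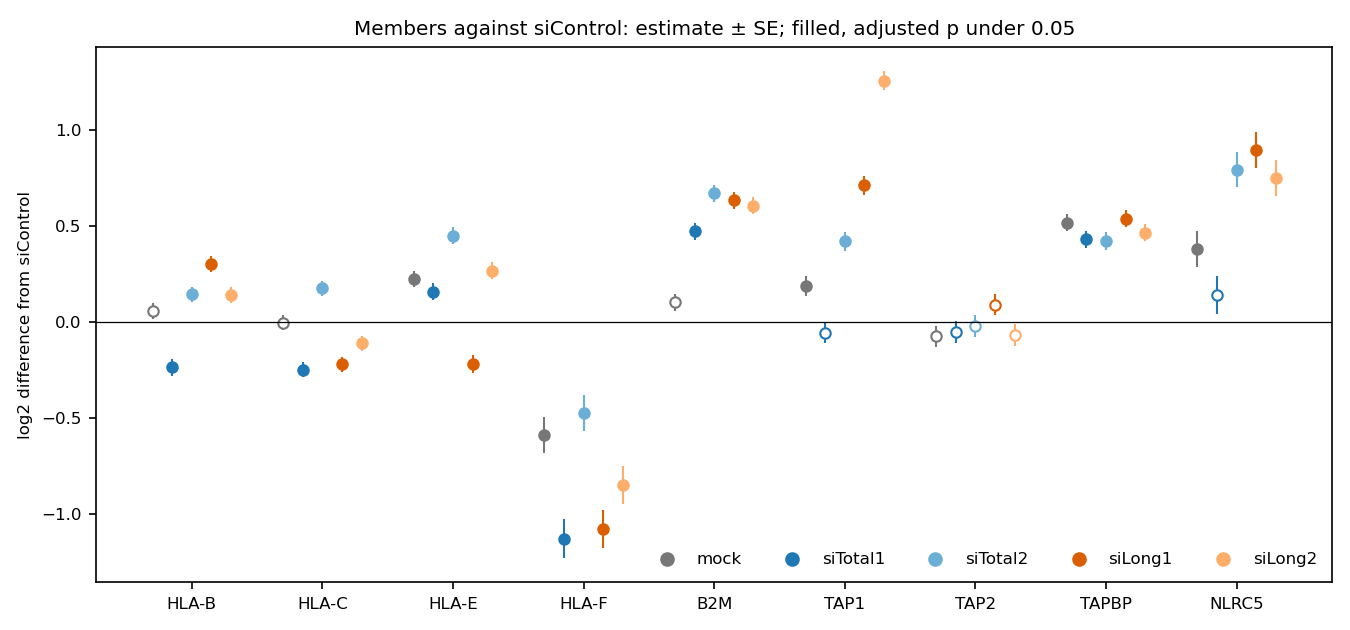
Log2 difference from siControl (y axis) of each member in mock and in each siRNA group, with the standard error of the edgeR fit as a bar and filled points where the adjusted p was under 0.05. HLA-F is below 0 and TAPBP above 0 in all 5 groups, mock included, while for B2M mock is near 0, at 0.10, and the siRNA groups are at 0.47 to 0.67.

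With siRNAs to all NFYA transcripts (siTotal against siControl), B2M, HLA-E, TAPBP, NLRC5 and TAP1 rose and HLA-F fell, and HLA-B, HLA-C and TAP2 were not called. That is 5 of 9 higher and 1 lower, where 22.0% of the 17730 tested genes were called higher and 22.2% lower. HLA-E rose by 0.30 (SE 0.04), NLRC5 by 0.47 (SE 0.08) and TAP1 by 0.18 (SE 0.04), beside the B2M, TAPBP and HLA-F values above (edgeR adjusted p from 1.4e-14 to 9.6e-04). The median over the 9 members was 0.18, and over all tested genes 0.00. Against mock only 1 was higher, B2M, and 1 lower, HLA-B at -0.11 (adjusted p = 0.022), with 16.6% and 14.2% of all genes called in those directions. Ranges of the 4 siTotal and the 4 control libraries were separate for B2M alone, 1 of 9, and for 11.9% of all genes. Comparisons that name the same control share its 2 libraries, so their values are not independent of each other.

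The 2 siTotal siRNAs differed from each other in 7 members. All 7 were lower in siTotal1 than in siTotal2 and 0 were higher, with 20.6% of all genes called lower and 23.3% higher. Differences ran from -0.20 for B2M (SE 0.04, adjusted p = 3.2e-04) over -0.38 for HLA-B, -0.42 for HLA-C, -0.29 for HLA-E and -0.48 for TAP1 to -0.65 for both HLA-F and NLRC5 (edgeR), with the median of the 9 members at -0.38. TAP2 was at -0.03 (adjusted p = 0.69) and TAPBP at 0.01 (adjusted p = 0.90). Against siControl, siTotal1 had 3 members higher and 3 lower (22.9% and 20.5% of all genes) and siTotal2 had 7 higher and 1 lower (22.6% and 22.6%). NFYA itself was alike in these groups, at 47.3 ± 0.78 and 46.1 ± 0.10 CPM. The fibroblast marker reads given above were higher in siTotal2 than in siTotal1, and their part in this difference was not tested.

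With siRNAs to the longest transcripts (siLong against siControl), TAP1 (0.99, SE 0.04), NLRC5 (0.82, SE 0.08), B2M, TAPBP and HLA-B (0.22, SE 0.04) rose, and HLA-F and HLA-C (-0.17, SE 0.03) fell. These were 5 of 9 higher and 2 lower (25.1% and 28.4% of all tested genes; median 0.22 against -0.01 for all genes), and HLA-E and TAP2 were not called. Against mock, 4 were higher (TAP1, B2M, NLRC5 and HLA-B) and 3 lower (HLA-F, HLA-E at -0.20 and HLA-C at -0.16), with 24.4% and 26.4% of all genes called. The 4 siLong libraries were separate from the 4 control libraries for 6 of 9 members, HLA-B, B2M, TAP1 and NLRC5 above and HLA-C and HLA-F below, as for 24.4% of all genes. By single siRNA, siLong1 had 5 members higher and 3 lower than siControl (26.4% and 28.1%), and the libraries labelled siLong2 had 6 higher and 2 lower (25.9% and 26.9%). The siLong groups differed in 5 members, HLA-B (0.16) and TAP2 (0.16) higher in siLong1 and TAP1 (-0.54), HLA-E and HLA-C (-0.11) lower, with 26.7% and 27.0% of all genes called.

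The siTotal and siLong groups were also compared directly. HLA-E, at 0.28 (SE 0.03, adjusted p = 1.1e-09), and HLA-C, at 0.13 (SE 0.03, adjusted p = 1.4e-04), were higher in siTotal by edgeR's test. TAP1 (-0.80, SE 0.03, adjusted p = 1.7e-20), NLRC5 (-0.36, SE 0.06), HLA-B (-0.27, SE 0.03) and TAPBP (-0.08, SE 0.03, adjusted p = 0.041) were lower. So 2 of 9 were higher and 4 lower, with 28.1% and 25.3% of all genes called in those directions, and B2M was at -0.05 (adjusted p = 0.21). The pooled directions did not hold for every siRNA: HLA-C had its lowest mean in siTotal1, at 238.9 CPM against 243.7 in siLong1 and 262.7 in siLong2, and HLA-E was at 111.4 CPM in siTotal1 and 120.2 in siLong2. NLRC5 was at 13.1 CPM in siTotal2 and 12.8 in siLong2, and HLA-B at 172.5 and 172.3, with overlapping library ranges. With the siLong2 libraries left out, TAP1 was at -0.53 and NLRC5 at -0.43. In mock against siControl, the comparison of the controls, 4 members were higher (TAPBP, NLRC5, HLA-E at 0.22 and TAP1 at 0.19) and 1, HLA-F, was lower (19.5% and 20.3% of all genes).

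Across the 12 libraries the members did not share 1 profile. Of their 36 pairs, 13 had a Pearson correlation of log2 CPM below 0 and 9 above 0.5, with a median of 0.16, given as a description of libraries that also share groups. NLRC5 was most like HLA-B (0.79), TAP1 (0.77) and B2M (0.77), and least like HLA-F (-0.40). HLA-F and TAPBP were the most opposed pair (-0.78), both set apart by siControl. The 5 genes outside the lists whose log2 CPM was closest to the mean standardized profile of the members, among 12260 genes, were PTGR1 (0.94), IGSF8 (0.94), DNAJC4 (0.94), EDEM3 (0.94) and ZBED2 (0.93). They were chosen for this likeness, and it is given as a description.

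Other genes of the pathway were taken from lists, whose counts stand beside 22.0% of all tested genes higher and 22.2% lower in siTotal, and 25.1% and 28.4% in siLong, against siControl. Against mock the shares were 16.6% and 14.2% in siTotal and 24.4% and 26.4% in siLong. For siLong1 alone they were 26.4% and 28.1%. Of the peptide loading and trimming genes, which fold heavy chains and cut peptides to length, 4 rose and 3 fell of 9 tested in siTotal and 4 rose and 2 fell in siLong against siControl (medians 0.16 and 0.02). In siLong1 alone 5 rose and 2 fell. With mock as the control the balance was 2 rising and 3 falling in siTotal (median -0.02) and 1 rising and 6 falling in siLong (median -0.10). CANX, the chaperone of new heavy chains, was at 504 ± 13 CPM in siControl and 1060 ± 49 in mock, 1154 ± 53 in siTotal1, 1049 ± 1.8 in siTotal2, 984 ± 6.9 in siLong1 and 1010 ± 8.3 in siLong2 (mean ± SD, n = 2). Like TAPBP, CANX was low in siControl alone, by 1.07 against mock (SE 0.04, adjusted p = 3.7e-21). ERAP2, an aminopeptidase that trims peptides, rose by 0.91 in siLong (SE 0.15, adjusted p = 1.8e-06) and by 0.68 in siTotal (SE 0.15, adjusted p = 2.2e-04), with siLong1 at 1.29 (SE 0.16) and mock at 0.04 (adjusted p = 0.87). By single siTotal siRNA, ERAP2 was at 1.00 in siTotal2 (SE 0.16) and was not called in siTotal1, at 0.37 (edgeR adjusted p = 0.089).

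Of 7 genes of the immunoproteasome and its activator, which alter how proteins are cut into peptides, 3 rose and 1 fell in siTotal and in siLong against siControl (medians 0.35 and 0.21), but against mock 0 rose and 1 fell in siTotal and 1 rose and 3 fell in siLong. In siLong1 alone 3 rose and 1 fell against siControl. The siTotal siRNAs differed: 1 rose and 3 fell in siTotal1 (median -0.05, with 22.9% and 20.5% of all genes called). In siTotal2 4 rose and 1 fell (median 0.31, with 22.6% and 22.6% of all genes called). PSMB9 encodes an immunoproteasome subunit. It is a neighbour of TAP1 on the opposite strand, and the annotated spans overlap with 0 shared exon bases. PSMB9 was at 3.04 ± 0.23 CPM in mock, 2.13 ± 0.08 in siControl, 1.20 ± 0.24 in siTotal1, 7.24 ± 0.46 in siTotal2, 2.36 ± 0.59 in siLong1 and 2.43 ± 0.13 in siLong2 (37 to 273 reads per library). It fell by 0.83 in siTotal1 (SE 0.21, adjusted p = 0.0015) and rose by 1.76 in siTotal2 (SE 0.16, adjusted p = 7.5e-12), and was at 0.19 in siLong2 (adjusted p = 0.41), where TAP1 was highest. PSMB9 reads per TAP1 read were 0.0248 and 0.0335 in siTotal1, 0.127 and 0.125 in siTotal2 and 0.0233 and 0.0241 in siLong2. The activator subunit gene PSME1 was at 63.9 ± 0.78 CPM in siControl, 75.9 ± 0.91 in siTotal1 and 116 ± 2.6 in siTotal2, and mock, at 92.8 ± 5.0, was also above siControl. The 3 constitutive catalytic subunits fell in both siTotal and siLong against siControl (PSMB6 by 0.53 in siTotal, SE 0.04) and in siLong1 alone, and mock was lower too, at 3 of 3.

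**Figure D4:**
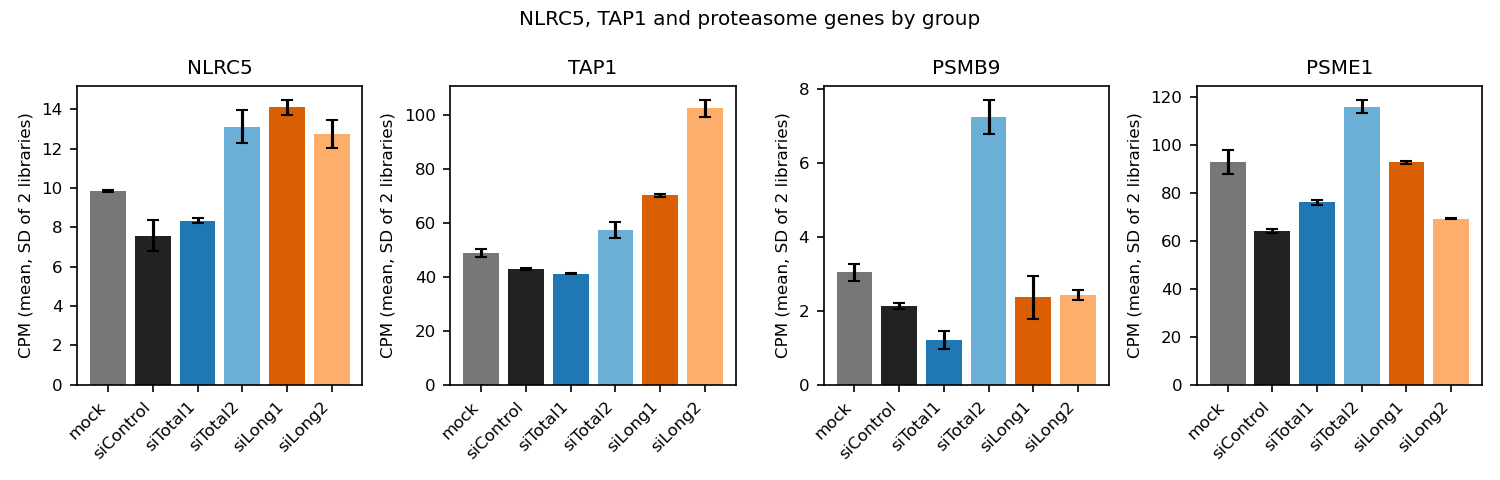
Mean CPM (y axes, from 0) of NLRC5, TAP1, PSMB9 and PSME1 in the 6 groups, with error bars of 1 SD over 2 libraries. TAP1 peaks in siLong2, while PSMB9 peaks in siTotal2 at 7.24 CPM and is lowest in siTotal1 at 1.20 CPM.

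Among 8 subunits of the factors that bind the S, X and Y boxes, 5 rose and 2 fell in siTotal and 2 rose and 3 fell in siLong against siControl (medians 0.19 and 0.02), and in siLong1 alone 3 rose and 4 fell. Against mock 2 rose and 1 fell in siTotal and 1 rose and 1 fell in siLong. The 8 subunits include NFYA, the gene targeted by the siRNAs, so its own change in these counts is no separate result. NFYB and NFYC, the partners of NFYA, rose by 0.77 (SE 0.05) and 0.72 (SE 0.04) in siTotal, while RFXAP, a subunit of the X box factor, fell by 0.41 in siLong (SE 0.13, adjusted p = 0.0076) and RFXANK rose by 0.36 (SE 0.05, adjusted p = 6.2e-07). In siLong1 alone RFXAP was at -0.65 (SE 0.15) and RFXANK at 0.32 (SE 0.06). Of 13 tested class I-like chain genes 3 rose and 2 fell in siTotal, and 6 rose and 4 fell in siLong (medians 0.03 and 0.21). The siLong groups ran opposite ways: 4 rose and 7 fell in siLong1 (median -0.46), and 9 rose and 1 fell in the libraries labelled siLong2 (median 0.67). Against mock 7 rose and 3 fell in siTotal, and 7 rose and 2 fell in siLong. MICB, a ligand of natural killer cells, rose by 0.80 in siTotal (SE 0.04, adjusted p = 6.2e-18). Mock was also above siControl, by 0.44 (SE 0.05), and siTotal was above mock by 0.37 (SE 0.04). MR1, which presents vitamin B metabolites, was at 10.9 ± 0.57 CPM in siControl, 13.9 ± 1.2 in siLong1 and 28.9 ± 1.0 in siLong2.

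Class II genes, whose promoters also carry the S, X and Y boxes and which are active mainly in antigen-presenting cells, were low. Their 12 genes summed to 10.3 to 26.0 CPM per library, HLA-DMA, HLA-DRB1 and HLA-DRA had up to 248, 248 and 149 reads in a library, HLA-DQA1 had 0 in every library, and CIITA, the class II transactivator gene, had at most 8 in a library. Of 10 tested, 3 rose in siTotal and 8 in siLong against siControl and 0 fell (medians 0.68 and 0.79). Against mock 1 rose and 2 fell in siTotal, and 3 rose and 1 fell in siLong. All 10 rose in the libraries labelled siLong2, and 1 rose and 1 fell in siLong1. The siTotal siRNAs also differed, with 2 rising in siTotal1 (median 0.40) and 7 in siTotal2 (median 1.00), and 0 falling in either. Of all genes 22.9% were called higher in siTotal1 and 22.6% in siTotal2. HLA-DRB1, a beta chain gene, was at 1.83 ± 0.54 CPM in siControl, 1.71 ± 0.25 in siLong1 and 6.84 ± 0.26 in siLong2. The sum of the 10 blood and antigen-presenting cell markers, of which 2 had enough reads to be tested, was 1.25 to 1.55 CPM in siControl, 3.97 to 4.50 in siLong1 and 1.63 to 1.90 in siLong2, with ITGAX at 1.05 ± 0.15, 3.64 ± 0.32 and 1.08 ± 0.087. The part of such cells in the class II values was not tested.

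Interferon targets, a set that includes genes induced together with class I, rose in 10 of 19 and fell in 1 in siTotal, and rose in 11 and fell in 2 in siLong against siControl (medians 0.47 and 0.49). Against mock 11 rose and 0 fell in siTotal and 10 rose and 3 fell in siLong, and siLong1 alone had 11 higher and 4 lower than siControl. The antiviral gene IFIT2 was at 0.811 ± 0.005 CPM in siControl, 1.53 ± 0.11 in mock, 3.08 ± 0.08 in siTotal1, 2.85 ± 0.15 in siTotal2, 3.01 ± 0.29 in siLong1 and 3.90 ± 0.79 in siLong2. The double-stranded RNA sensor gene IFIH1 rose by 1.38 in siLong (SE 0.08, adjusted p = 2.1e-16), and IFI6 rose by 1.25 in siTotal (SE 0.11, adjusted p = 5.0e-12), but IFI35 fell by 1.08 in siLong (SE 0.10, adjusted p = 1.2e-11). In siLong1 alone IFIH1 was at 1.40 (SE 0.09) and IFI35 at -1.01 (SE 0.12). By single siRNA, siTotal1 had 5 interferon targets higher and 5 lower than siControl, and siTotal2 had 11 higher and 0 lower. Genes of interferon signalling were mixed, with 6 of 18 higher and 4 lower in siTotal and 6 higher and 6 lower in siLong, among them IRF7, a regulator of interferon genes, at -1.13 in siLong (SE 0.11) and -1.22 in siLong1 (SE 0.13). In siLong1 alone 7 were higher and 6 lower. Of 9 NF-kB subunit and inhibitor genes, 6 fell in siTotal and 8 in siLong against siControl and 0 rose. In siLong1 alone 6 fell and 1 rose. With mock as the control 2 rose and 1 fell in siTotal and 2 rose and 3 fell in siLong.

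**Figure D5:**
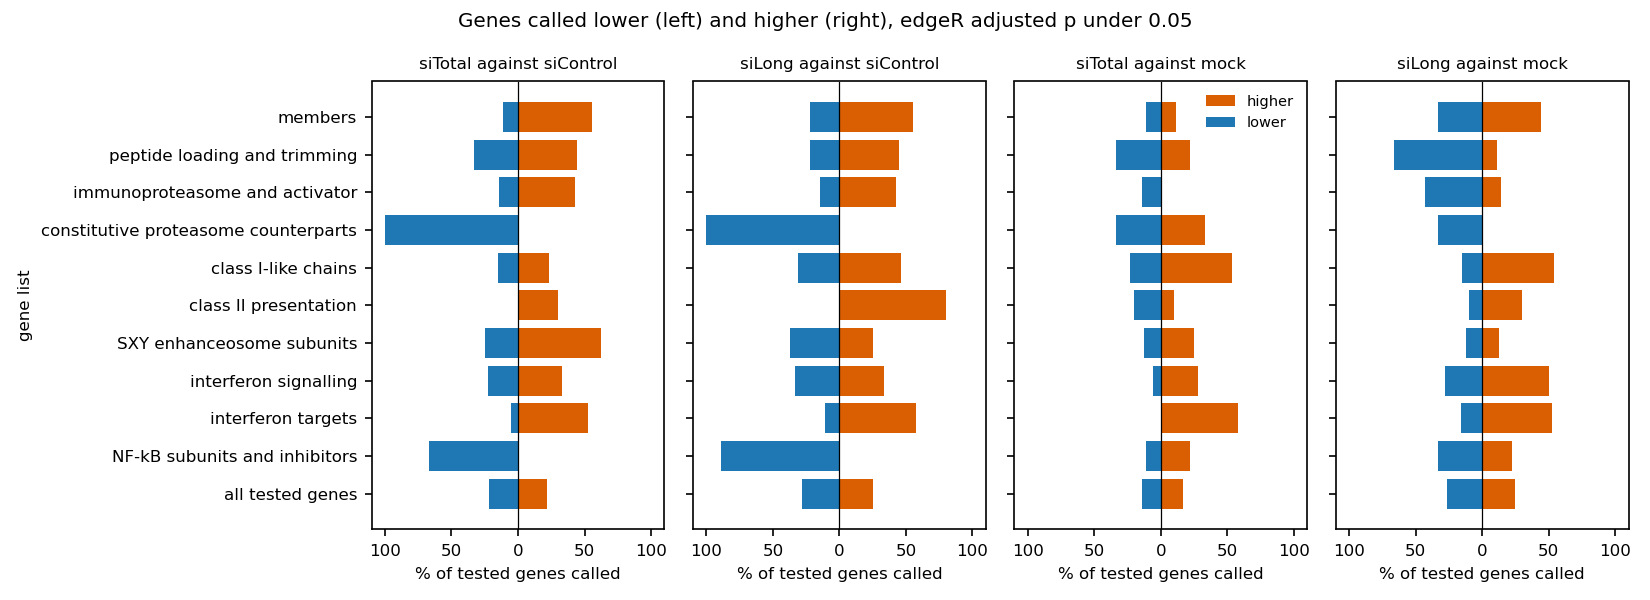
Percent of tested genes called lower (left, blue) and higher (right, orange) by edgeR at an adjusted p under 0.05 (x axis) for each gene list (y axis), in siTotal and siLong against siControl and against mock. For the 9 members, siTotal against mock has 1 higher and 1 lower where siTotal against siControl has 5 and 1, and the interferon targets have 10 or 11 of 19 higher in all 4 comparisons.

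A further layout summed the 2 libraries of every group, so that an arm held its siRNA sequences as replicates and the control arm held mock and siControl, and there edgeR called 0 of 9 members in siTotal and 0 in siLong. The same layout called 0 of all 19088 genes it tested in siTotal (0.0%) and 1 in siLong (0.00524%), so it made almost no calls for any gene. At an unadjusted p under 0.05 there were 423 genes in siTotal (2.22%) and 2009 in siLong (10.5%). Among the members there were 1 in siTotal, B2M at 0.52 (SE 0.13), and 2 in siLong, B2M at 0.57 (SE 0.13, adjusted p = 0.28) and TAP1 at 0.92 (SE 0.23, adjusted p = 0.29), and no other tool was run on this layout.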

How the data were processed

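The deposited table gives raw read counts by Ensembl gene for the 12 libraries and has 0 columns of other samples. The tools listed in the submitters' processing notes are featureCounts and STAR 2.4.0f1, with the build hg19; no annotation release or strand setting is named. Libraries were stranded and polyadenylated RNA was selected, per the labels' protocols. Symbols were found for 52181 of 63677 identifiers; positions are from GENCODE 29 on GRCh38, matched by identifier, not hg19.

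In edgeR 4.0.16 under R 4.3.3, filterByExpr (at least 10 reads, 15 in total) left 17730 genes. TMM factors and a quasi-likelihood fit of the 6 groups followed, with 6 residual degrees of freedom and a common coefficient of biological variation of 3.57%. siTotal and siLong are means of their siRNA groups. P-values were adjusted by Benjamini-Hochberg over all genes within each of 12 comparisons, with calls at 0.05. Replicates differed by more than counting noise (chi-square per degree of freedom 1.84 to 7.47). Alternatives included DESeq2 1.42.0.

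All members are named; from each other list up to 4 called genes with the largest difference and a log2 CPM above 0. Members and lists were chosen with earlier results of these data known, and motifs after the sequences were seen.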

Additional observations from a re-analysis of the deposited data

Results flagged for a closer look

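The siRNAs to 1 target differed in their effect on several members by the test of the difference itself (edgeR, adjusted p under 0.05; log2 differences). For siTotal1 against siTotal2 the members were HLA-B (-0.38), HLA-C (-0.42), HLA-E (-0.29), HLA-F (-0.65), B2M (-0.20), TAP1 (-0.48) and NLRC5 (-0.65). For siLong1 against siLong2 they were HLA-B (0.16), HLA-C (-0.11), HLA-E (-0.49), TAP1 (-0.54) and TAP2 (0.16). HLA-B and HLA-C moved in opposite directions in siTotal1 and siTotal2 against siControl, and so did HLA-E in siLong1 and siLong2. Among the 4 control, 4 siTotal and 4 siLong libraries no single library stood far from the other 3 in any member, by its gap to the nearest library over the range. Each set of 4 joins different groups, so where these differ the rule can miss an aberrant library, and it does not show that replicates agree.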

How the results depend on the processing

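The 2 siRNA sequences per target and 2 cultures per group limit all values. With each siRNA sequence as 1 replicate and mock and siControl as the control arm, 0 members were called in siTotal (6 against siControl alone) and 0 in siLong (7), but so were 0 and 1 of all 19088 genes tested. That layout changed the replicates, the controls and the genes tested together, and the cause was not tested. Leaving out each library in turn gave 2 to 4 called members in siTotal against mock (2 with all libraries) and 3 to 5 in siLong1 against siLong2. The replicate block gave 6 called members in siTotal and 7 in siLong against siControl, as without it, and 3 in siTotal against mock; the numbers did not pair the libraries (6 of 15 group pairs correlated above 0.1, from -0.29 to 0.34).

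Some values turned sign. With mock and siControl as 1 control group, TAP2 in siTotal was at 0.0019, and the value for HLA-E, siLong against siControl, was -0.0877 (adjusted p = 0.017). That value was -0.068 with each siRNA sequence as 1 replicate and -0.22 (adjusted p = 0.000183) with the siLong2 libraries left out, an alternative chosen after seeing the data, which also put TAPBP in siLong against mock at 0.023. With only the groups compared in the fit, TAPBP in siTotal1 against siTotal2 was at -0.0031. Leaving out single libraries moved values across 0 for HLA-E (-0.014 to 0.049) and TAP2 (-0.040 to 0.052) in siLong against siControl, HLA-C in mock against siControl (-0.024 to 0.026), TAP1 in siTotal against mock (-0.047 to 0.022), TAPBP in siLong against mock (-0.040 to 0.0065), TAP2 in siTotal2 against siControl (-0.074 to 0.018), TAPBP in siTotal1 against siTotal2 (-0.012 to 0.016) and B2M, siLong1 against siLong2 (-0.0249 to 0.064). Over single members, 574 values kept direction and call under the other alternatives, 16 lost a call, 7 gained one and 6 turned. Summing identifiers of a symbol was not run, since each member had 1.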
